A study of Mus musculus with 6 samples.

Results

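Cells that signal through RAS and the kinase ERK carry a set of brakes on that signal, and 10 genes for such brakes in the mouse were named for this account: the MAPK phosphatases Dusp1, Dusp4 and Dusp6, the Sprouty genes Spry1, Spry2 and Spry4, the Spred genes Spred1 and Spred2, and the RAS GTPase-activating proteins Rasa1 and Nf1. They were taken by gene symbol from a table of 10245 genes measured by RNA-seq in whole pancreas, and 8 of the 10 were found there. Dusp4 and Spry4 were not analysed here. The question was how the transcripts of these brakes stood after adult acinar cells, the enzyme-secreting cells of the pancreas, lost the transcription factor PTF1A that maintains their identity.

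The table covers 3 control mice of genotype Ptf1a(CreER/+) and 3 Ptf1a cKO mice of genotype Ptf1a(CreER/fl). All mice received 3 daily doses of tamoxifen by gavage, each of 0.25 mg per g of body weight, and were killed on day 14 counted from the first dose. The CreER allele sits in the Ptf1a locus and makes no PTF1A protein, so the controls were heterozygous for Ptf1a, and Cre was driven by the Ptf1a locus itself in acinar cells. By the study's description the inducible mice also carried the R26R EYFP reporter, and recombination did not reach every acinar cell. Control mice were 4 months old and Ptf1a cKO mice 5 months old, so that age and genotype cannot be told apart. Control 1 and Ptf1a cKO 2 were male and the other 4 mice female.

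RAS switches on RAF, which switches on MEK and then ERK, and ERK carries growth factor signals to the nucleus. The brakes act at successive steps. RasGAPs such as RASA1 and neurofibromin, the product of Nf1, speed the hydrolysis of GTP by RAS and so switch it off. Sprouty proteins interrupt the passage from receptors to RAS and RAF, Spred proteins bring neurofibromin to the membrane, and dual-specificity phosphatases remove the activating phosphates from ERK and related kinases. Several of these genes, Dusp6 and the Sprouty genes among them, are themselves transcribed in response to ERK and are used as readouts of the pathway as well as being its inhibitors. In the pancreas, sustained signaling through the pathway is known to drive the conversion of acinar cells into duct-like cells.

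The promoter sequences of the 2 members that passed the test for a difference are shown first. That of Rasa1 is beside them as an example of a member that held 1 of the searched motifs, as Dusp1 and Nf1 also did. Each is the stretch of 250 bases before the annotated start, from RefSeq on GRCm38.p6, written in the direction of transcription. All 8 members found in the table matched a RefSeq entry. For Dusp6 the window was chr10:99262981-99263230 on the plus strand, for Spry1 chr3:37639697-37639946 on the plus strand, and for Rasa1 chr13:85289487-85289736 on the minus strand, none overlapping an annotated exon. Capitals in the Rasa1 sequence mark the ETS motif CCGGAA.
Dusp6 promoter: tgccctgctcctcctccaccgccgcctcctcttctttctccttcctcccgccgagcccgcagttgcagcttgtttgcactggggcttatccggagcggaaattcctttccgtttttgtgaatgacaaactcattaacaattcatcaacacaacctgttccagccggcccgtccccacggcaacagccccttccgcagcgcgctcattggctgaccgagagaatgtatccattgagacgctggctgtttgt
Spry1 promoter: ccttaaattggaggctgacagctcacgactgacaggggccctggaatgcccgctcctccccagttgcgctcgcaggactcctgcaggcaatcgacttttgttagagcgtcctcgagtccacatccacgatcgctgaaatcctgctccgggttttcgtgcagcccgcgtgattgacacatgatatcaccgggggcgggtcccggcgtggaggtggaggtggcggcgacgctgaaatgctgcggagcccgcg
Rasa1 promoter: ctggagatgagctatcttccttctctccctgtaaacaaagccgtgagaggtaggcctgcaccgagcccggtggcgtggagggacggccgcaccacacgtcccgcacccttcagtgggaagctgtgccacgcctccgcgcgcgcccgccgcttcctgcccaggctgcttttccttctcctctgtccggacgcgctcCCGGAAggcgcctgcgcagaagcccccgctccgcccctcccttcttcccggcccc

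A search of both strands for 5 motifs found few matches in these windows. The motifs were those of AP-1 (TGANTCA), present in 6.75% of 32851 RefSeq promoters of the same length, of CREB (TGACGTCA), present in 1.55%, of the E-box (CACCTG), present in 17.2%, of the TC-box (TTTCCCA), present in 6.82%, and of ETS factors (CCGGAA), present in 12.0%. The E-box and the TC-box are the pair of elements that the PTF1 complex binds. Among the members, Dusp1 held the CREB motif from 143 to 136 bases before its start, and Rasa1 and Nf1 held the ETS motif, from 55 to 50 and from 216 to 211 bases before theirs. Dusp6 and Spry1 held none of the 5. The letters alone say nothing about whether a factor binds there or elsewhere. The member promoters were rich in G and C, from 56.0% in Spred2 and 56.4% in Dusp6 to 74.0% in Nf1, beside a median of 52.4% over all promoters.

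Values below are normalized read counts, scaled across libraries by the authors, and a value per kb is that count divided by the length of the gene's merged exons. Differences were tested by limma on log2 values with Benjamini-Hochberg adjustment over all 10245 genes, and an adjusted p under 0.05 counted as passing. As a check of the labels, Ptf1a itself stood at 566.4, 600.7 and 651.6 in the control libraries and at 19.8, 70.1 and 10.2 in the Ptf1a cKO libraries, a log2 difference of -4.41 (adjusted p = 0.000329). Whether reads in the undeleted part of Ptf1a enter these counts is not known. The acinar markers were lower and the ductal regulator Sox9 was higher, at 125.3 ± 14.4 in controls and 591.4 ± 65.5 in Ptf1a cKO mice (SD, n = 3). The digestive enzymes and secreted acinar proteins were 37 genes. They took between 83.7% and 86.1% of the normalized counts summed over genes in a control library. In a Ptf1a cKO library they took between 39.5% and 66.2% of that sum.

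Of the 8 brakes, Dusp6 and Spry1 rose and none fell. In all genes tested, 17.1% were called higher and 16.8% lower. The log2 fold change was above 0 for all 8 and for 53.1% of all genes, with a median of 0.39 beside 0.04 over all genes. In 4 of the 8 (Dusp6, Spry1, Spry2 and Spred1) every Ptf1a cKO library lay above every control library, which held for 26.5% of all genes. The opposite order held for none of the 8 and for 24.3% of all genes. These are counts of few genes, and no test of the list as a whole was made. The table holds no gene whose highest library lay under 27.6 normalized counts. Spry2 reached that level only in Ptf1a cKO libraries, so its place in these counts was favored by its being high there.

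**Figure D1:**
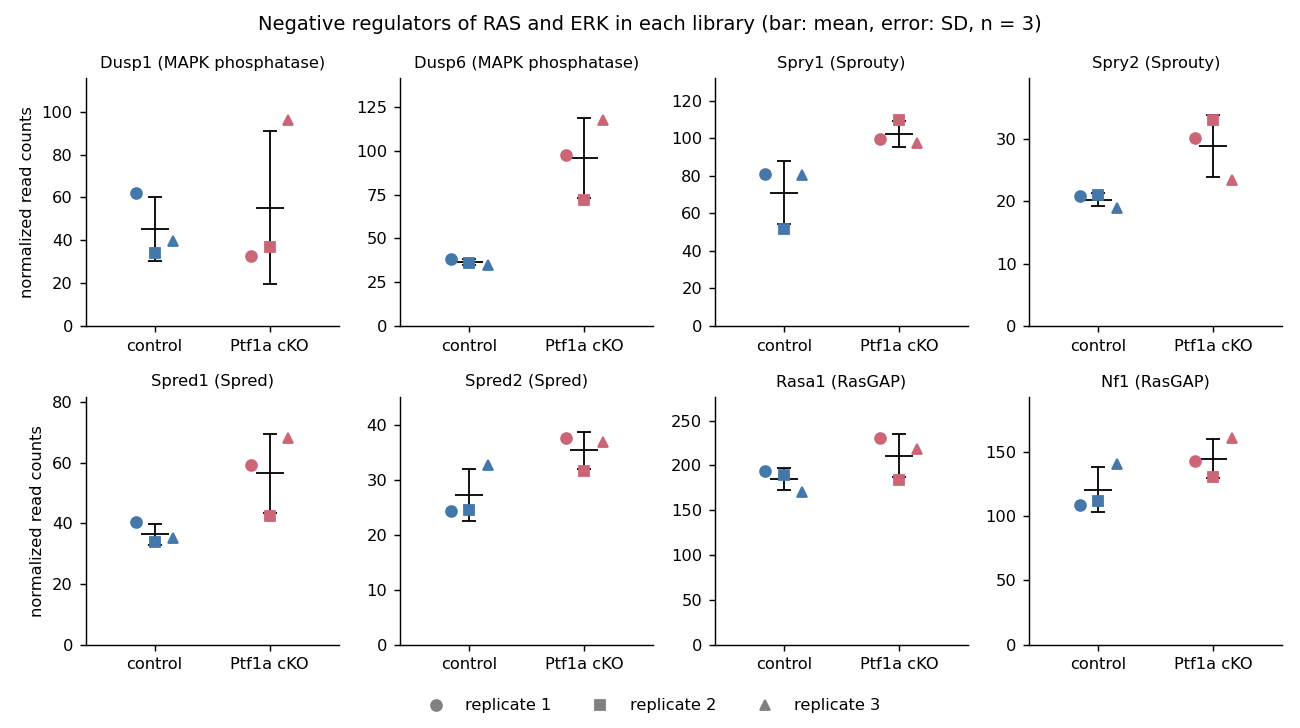
Normalized read counts of the 8 brakes in each library, control in blue and Ptf1a cKO in red, with the symbol giving the replicate number, the horizontal bar the mean and the error bar the SD of 3 mice. Dusp6 stands clearly apart between the groups (35.1 to 38.2 against 72.0 to 117.7), whereas the Dusp1 libraries overlap, with Ptf1a cKO 3 above the other 5.

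Dusp6 encodes a cytoplasmic phosphatase selective for ERK, and its transcript showed the largest difference among the 8. It was measured at 38.2, 36.1 and 35.1 normalized counts in control libraries 1 to 3 and at 97.7, 72.0 and 117.7 in Ptf1a cKO libraries 1 to 3. The control libraries were nearly equal, and the lowest Ptf1a cKO library still lay well above them. The mean went from 36.5 ± 1.56 to 95.8 ± 22.9 (SD, n = 3), a ratio of 2.63. The log2 fold change was 1.29 with a standard error of 0.192 and a 95% interval from 0.86 to 1.72 (limma, adjusted p = 0.00132). With any 1 library left out it stayed between 1.13 and 1.47 and passed each time, with an adjusted p of at most 0.0074.

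Dusp1 encodes a nuclear phosphatase that acts on p38 and JNK as well as on ERK and belongs to the immediate early genes. It was measured at 62.0, 34.2 and 39.7 normalized counts in the control libraries and at 32.7, 36.9 and 96.3 in the Ptf1a cKO libraries. The groups overlapped, since Ptf1a cKO 1 was the lowest library of all and Ptf1a cKO 3 the highest. The log2 fold change of 0.15 had a 95% interval from -0.71 to 1.01 (adjusted p = 0.785). Without Ptf1a cKO 3 it was -0.31, and without control 2 it was -0.02, so no direction was held. The 2 phosphatases differed in how steady they were across mice, and the difference between them in fold change was not tested.

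Spry1, a Sprouty gene, rose by a smaller amount and by a margin that depended on single libraries. Its counts were 80.8, 51.7 and 80.5 in the control libraries and 99.6, 109.8 and 97.2 in the Ptf1a cKO libraries. Every Ptf1a cKO library exceeded every control library, and the spread lay mostly in the controls, where control 2 stood low. The mean was 71.0 ± 16.7 in controls and 102.2 ± 6.7 in Ptf1a cKO mice, a ratio of 1.44. The log2 fold change was 0.53 with a standard error of 0.182 (adjusted p = 0.0498). The call was held without control 3 (adjusted p = 0.0476) and was lost without any of the other 5 libraries, the adjusted p reaching 0.136 and the log2 fold change 0.33 without control 2.

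Spry2 was measured at 20.8, 20.9 and 19.0 normalized counts in the control libraries and at 30.1, 33.1 and 23.5 in the Ptf1a cKO libraries. The groups did not overlap, but the values were low and the difference did not pass. Its log2 fold change was 0.44, with a 95% interval from -0.17 to 1.04 (adjusted p = 0.231). The ratio of the means was 1.43, against 1.44 for Spry1. The other Sprouty and Spred genes listed, Spry3 and Spred3, were not analysed here.

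The Spred genes did not pass. Spred1 was at 40.4, 33.9 and 35.1 normalized counts in the control libraries and at 59.3, 42.5 and 68.2 in the Ptf1a cKO libraries, with Ptf1a cKO 2 close to the controls. The log2 fold change was 0.57, with a 95% interval from 0.10 to 1.04, and the adjusted p of 0.0623 missed the threshold. Without Ptf1a cKO 2 the log2 fold change was 0.75 and passed (adjusted p = 0.0192), and with any other library left out it did not pass. Spred2 was at 24.4, 24.5 and 32.6 in the control libraries and at 37.6, 31.6 and 37.0 in the Ptf1a cKO libraries. Control 3 of Spred2 lay above the lowest Ptf1a cKO library, and the log2 fold change of 0.35 did not pass (adjusted p = 0.263).

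The RasGAPs did not pass, and their intervals were the narrowest of the set. Rasa1 was at 193.3, 189.7 and 170.5 normalized counts in the control libraries and at 230.3, 183.7 and 218.1 in the Ptf1a cKO libraries. Nf1 was at 109.0, 111.9 and 140.6 in the control libraries and at 143.1, 130.4 and 160.7 in the Ptf1a cKO libraries. For both genes Ptf1a cKO 2 lay inside the control range. The log2 fold change was 0.18 for Rasa1, with a 95% interval from -0.10 to 0.47 (adjusted p = 0.28), and 0.26 for Nf1, with a 95% interval from -0.06 to 0.58 (adjusted p = 0.179). The upper bounds of both intervals lay below the lower bound for Dusp6, 0.86.

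**Figure D2:**
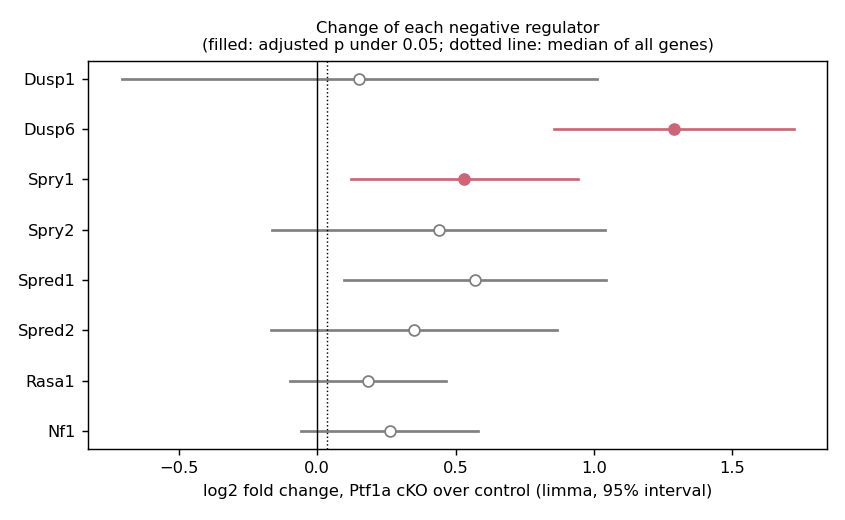
Log2 fold change of each brake, Ptf1a cKO over control, from limma, with its 95% interval as a horizontal line, the genes in order of their role and the median of all genes dotted. Dusp6 (1.29) and Spry1 (0.53) are filled as passing an adjusted p of 0.05. The intervals of Dusp1, Spry2, Spred2, Rasa1 and Nf1 include 0, while that of Spred1 does not but missed the threshold after adjustment.

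Counted per kb of exon, the level of Dusp6 went from the middle of the set towards its top. In control mice the order was Rasa1 with 25.2 ± 1.67 normalized counts per kb, Spry1 with 24.4 ± 5.75, Dusp1 with 13.7 ± 4.45, Dusp6 with 11.6 ± 0.499, Spry2 with 9.71 ± 0.522, Nf1 with 7.6 ± 1.1, Spred2 with 5.89 ± 1.02 and Spred1 with 5.37 ± 0.511 (SD, n = 3). Between neighbours in that order the ranges over libraries were separate only for Dusp6 over Spry2 and for Spry2 over Nf1. In Ptf1a cKO mice Spry1 led with 35.2 ± 2.31 per kb, followed by Dusp6 with 30.6 ± 7.31 and Rasa1 with 28.8 ± 3.3, whose ranges overlapped. Below them came Dusp1 with 16.7 ± 10.7, Spry2 with 13.8 ± 2.36, Nf1 with 9.13 ± 0.961, Spred1 with 8.35 ± 1.92 and Spred2 with 7.66 ± 0.719, and of these only Spry2 over Nf1 were separate. No member was at 0 in any library.

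The 3 Ptf1a cKO libraries did not rank the brakes alike. Ptf1a cKO 2, which kept the most Ptf1a (70.1), had the lowest Dusp6, Spred1, Spred2, Rasa1 and Nf1 of the 3, and the highest Spry1 and Spry2. Ptf1a cKO 3 had the highest Dusp6, Dusp1, Spred1 and Nf1, and the lowest Spry1 and Spry2. With 3 libraries this is a description only. The closest profiles to Dusp6 over the 6 libraries, by the root mean square difference of log2 values around each gene's own mean, were those of Phldb2 (0.0725), Cyp4f16 (0.0753) and BC030307 (0.0872). For Spry1 they were Sirt4 (0.0764), Srek1ip1 (0.0795) and Lsm2 (0.0803), for Spred1 Plgrkt (0.0478), Mgea5 (0.0637) and Rfx5 (0.0672), and for Nf1 Cpne3 (0.0446) and 9530068E07Rik (0.0484). Cyp4f16 and BC030307 reached 27.6 normalized counts only in Ptf1a cKO libraries, which favored their likeness to Dusp6.

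The cell types of the organ moved with the groups. The summed level of 9 acinar markers ranged from 9393000 to 11810000 normalized counts in control libraries and from 1178000 to 3658000 in Ptf1a cKO libraries, and 7 of the 9 fell. The sum of the 6 ductal markers in the table went from a range of 2054 to 2864 to one of 22770 to 107000, with 3 of 6 called higher, and from a range of 727.0 to 905.8 to one of 1635 to 1794 without Spp1. The sum of 9 fibroblast and stellate cell markers went from a range of 3029 to 3446 to one of 5948 to 10520, with 8 of 9 called higher, and that of 7 leukocyte markers from a range of 445.2 to 727.5 to one of 1151 to 2346, with 6 of 7 called higher. The endothelial sum ranged from 824.5 to 1054 in controls and from 811.5 to 1029 in Ptf1a cKO mice, with 1 of 6 markers called higher, and none of 6 endocrine markers was called in either direction (sums of 11340 to 42600 and of 5813 to 33090). No marker was at 0 in any library.

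Within the Ptf1a cKO group the marker lists did not all run the same way. Nearly all of the ductal sum was Spp1, at 105300, 87510 and 20970 in Ptf1a cKO 3, 1 and 2, in that falling order of Dusp6. The other 5 ductal markers summed to 1647, 1635 and 1794 in the same order, highest in Ptf1a cKO 2, where Dusp6 was lowest. Leukocyte sums were 2346, 1520 and 1151 in that order, and kept it without Lyz2, the most abundant of them (1151, 672.4 and 553.8). Endocrine sums fell in that order too (33090, 27140 and 5813), so it was not particular to leukocytes. Acinar sums ran in reverse (1178000, 2075000 and 3658000), and endothelial sums ran neither way (1029, 811.5 and 835.5). Spry1 was highest in Ptf1a cKO 2, where the fibroblast and stellate sum was highest at 10520, against 5948 and 7690 in Ptf1a cKO 1 and 3. The full orders differed, since Spry1 was lowest in Ptf1a cKO 3 and that sum in Ptf1a cKO 1. Acinar sums had the same order as Spry1. The part of these cell types in the values of Dusp6, Spry1 and Spred1 was not tested. In RNA from the whole organ, fewer cells of a type and less RNA per cell cannot be told apart.

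Most genes of the pathway itself did not pass. Of 21 listed, 18 were in the table, of which 1 rose, 2 fell and 15 did not pass, beside 33.9% of all genes called in either direction. Nras, a RAS gene, was at 129.6, 126.8 and 101.9 in the control libraries and at 175.0, 161.1 and 156.0 in the Ptf1a cKO libraries. Its groups did not overlap, and it rose (log2 fold change 0.45, adjusted p = 0.0261). It passed in only 2 of the 6 fits that each left 1 library out. The call of Nras was lost with the same total without digestive enzymes (log2 fold change 0.29, adjusted p = 0.143). Rras2, a RAS relative, went from 251.4 to 100.2 on average (log2 fold change -1.29, adjusted p = 0.000174). It was lower as deposited but above 0 (0.17) when every library was given the same total, a scaling that moved the median of all genes to 1.49. Hras (listed as Hras1, -0.23, adjusted p = 0.159) did not pass, nor did Mapk3, the gene of ERK1, at 317.5 on average in controls and 380.1 in Ptf1a cKO mice (log2 fold change 0.25, adjusted p = 0.0981).

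Inhibitors of the pathway outside the 10 genes went both ways. Of 62 listed, 47 were in the table, and 6 rose, 12 fell and 29 did not pass, with a median log2 fold change of 0.16. Of the 12 that fell, 9 had a fold change above 0 with every library at the same total, and none of these 9 lay above the median of all genes under that scaling. Of all genes, 33.9% were called in either direction.

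**Figure D3:**
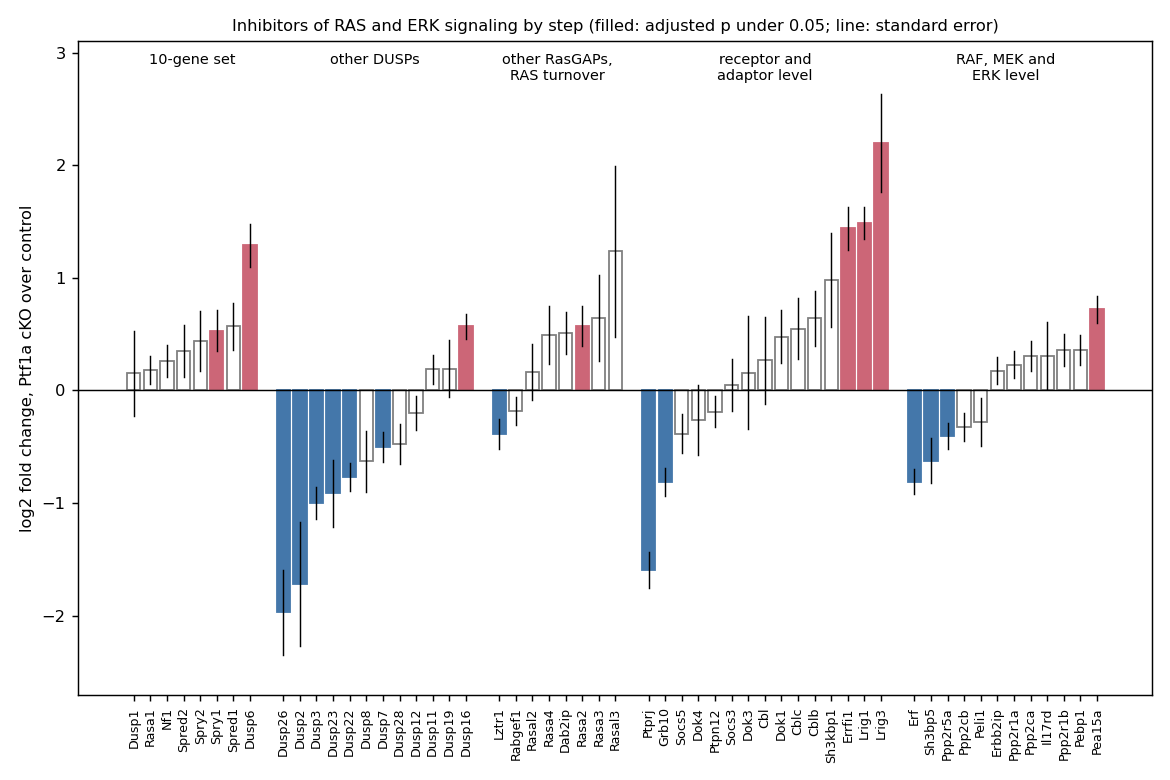
Log2 fold change, Ptf1a cKO over control, of the 8 brakes and of 47 other inhibitors grouped by the step at which they act, with bars from 0, filled in red where called higher and in blue where called lower at an adjusted p under 0.05, and lines of 1 standard error. In the 10-gene set the 2 filled bars point upward, and filled bars are mostly downward among the other dual-specificity phosphatases (1 up, 6 down).

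Among the other dual-specificity phosphatases, 12 of 19 were in the table, of which 1 rose and 6 fell, with a median log2 fold change of -0.57. Dusp7, which like Dusp6 is a cytoplasmic phosphatase selective for ERK, was at 112.3, 106.1 and 123.7 in the control libraries and at 71.3, 86.6 and 80.5 in the Ptf1a cKO libraries. Its groups did not overlap, and its log2 fold change was -0.50 (adjusted p = 0.0174, and 0.0624 without Ptf1a cKO 1). Within a library, log2 Dusp6 minus log2 Dusp7 was -1.56, -1.55 and -1.82 in the controls and 0.46, -0.27 and 0.55 in the Ptf1a cKO mice, a pair chosen after its values were seen. Dusp3, a phosphatase of ERK and JNK, fell from 264.3 to 129.0 on average (a ratio of 0.488, adjusted p = 0.000988). Dusp22 (-0.77, adjusted p = 0.00208) and Dusp26 (-1.97, adjusted p = 0.00439), atypical members of the family, fell too, and Dusp16, which acts on JNK and p38, rose (0.57, adjusted p = 0.00454). With all libraries at the same total, 4 of the 6 that fell were above 0.

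Among the other RasGAPs and genes of RAS turnover, 8 of 10 were in the table, of which 1 rose and 1 fell. Rasa2, a RasGAP, was at 38.4, 44.2 and 45.7 in the control libraries. In the Ptf1a cKO libraries it was at 54.9, 64.5 and 77.4 (log2 fold change 0.57, adjusted p = 0.0353). It passed in only 1 of the 6 fits that each left 1 library out. With the same total without digestive enzymes it did not pass (adjusted p = 0.132). Lztr1, which marks RAS proteins for ubiquitination, fell as deposited (log2 fold change -0.39, adjusted p = 0.0491) but not with every library at the same total. It passed in only 2 of the 6 fits that each left 1 library out. Neither call was steady, as was the case for Spry1. Rasal3, a RasGAP of leukocytes, was at 12.6, 7.18 and 13.0 in the control libraries and at 25.4, 6.97 and 117.7 in the Ptf1a cKO libraries, and did not pass (adjusted p = 0.236). The leukocyte marker Ptprc, at 418.6 in Ptf1a cKO 3 and between 22.8 and 86.6 in the other 5 libraries, was high in the same library. Rasal3 reached 27.6 normalized counts only in Ptf1a cKO 3, which favored that likeness.

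At the level of receptors and adaptors, 15 of 18 inhibitors were in the table, of which 3 rose and 2 fell, all 5 with any library left out. Lrig1, a membrane protein that promotes the degradation of EGF receptors, rose from 280.6 ± 7.26 to 801.4 ± 158.0 (SD, n = 3, limma log2 fold change 1.49, adjusted p = 0.000186). Errfi1, which blocks the kinase of the EGF receptor, was at 198.7, 152.7 and 136.6 in the control libraries and at 340.2, 505.0 and 501.3 in the Ptf1a cKO libraries (1.44, adjusted p = 0.00071). Both fold changes were above that of Dusp6 (1.29), a difference that was not tested. Lrig3, a relative of Lrig1 with at most 11.4 normalized counts in a control library, rose too (log2 fold change 2.20, adjusted p = 0.00511), though it entered the table only through Ptf1a cKO libraries. Ptprj, a receptor-type tyrosine phosphatase, fell by 1.59 on the log2 scale (adjusted p = 0.000218), and Grb10, an adaptor that restrains insulin receptor signaling, by 0.81 (adjusted p = 0.00158). With every library at the same total, Grb10 was higher (0.68, adjusted p = 0.0102) and Ptprj did not pass (-0.12, adjusted p = 0.652).

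At the level of RAF, MEK and ERK, 12 of 13 inhibitors were in the table, of which 1 rose and 3 fell. Pea15a, which holds ERK in the cytoplasm, was at 119.3, 113.1 and 131.7 in the control libraries and at 185.9, 206.2 and 214.3 in the Ptf1a cKO libraries (log2 fold change 0.72, adjusted p = 0.00208). Erf, a transcriptional repressor that ERK keeps out of the nucleus, was at 181.8, 178.2 and 198.0 in the control libraries and at 106.4, 101.1 and 106.1 in the Ptf1a cKO libraries (-0.81, adjusted p = 0.000842). Ppp2r5a, a subunit of protein phosphatase PP2A (-0.40, adjusted p = 0.0257), and Sh3bp5, which binds JNK (-0.62, adjusted p = 0.039), fell as deposited. Of the 6 fits that each left 1 library out, Ppp2r5a passed in only 3 and Sh3bp5 in only 1. All 3 that fell were above 0 with every library at the same total.

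Other transcripts that are known to follow ERK activity did not share 1 direction. Of 25 listed, 11 were in the table, and 6 rose and 4 fell. Egr1, Phlda1 and Etv5 reached 27.6 normalized counts only in Ptf1a cKO libraries, so the count that rose was favored by that. With the same total without digestive enzymes, 3 of the 6 still passed (Fosl2, Egr1 and Phlda1), as did all 4 that fell. The transcription factors Fosl2 (log2 fold change 1.16, adjusted p = 0.00297) and Egr1 (2.25, adjusted p = 0.00439) and Phlda1 (1.14, adjusted p = 0.00709) rose. Ier2 (-0.78, adjusted p = 0.000884), Myc (-1.67, adjusted p = 0.000907), Ccnd1, the gene of cyclin D1 (-1.17, adjusted p = 0.00148), and the survival gene Mcl1 (-0.74, adjusted p = 0.00159) fell, of which Ier2, Ccnd1 and Mcl1 were above 0 with every library at the same total. Egr1 was highest in Ptf1a cKO 3 (134.4, against 46.7 and 56.2 in Ptf1a cKO 1 and 2), the library with the highest Dusp6, Dusp1 and leukocyte sum.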

How the data were processed

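Whole pancreas RNA of 3 control and 3 Ptf1a cKO mice was sequenced by the authors. Single-end reads were aligned to mm9 with TopHat2 2.0.4 and Bowtie 0.12.7.0, and the submitters' processing notes also name SAMtools 0.1.18.0 and HTSeq 0.6.0. The deposited values are a signal, namely normalized read counts on a common scale (the median gene stood between 125 and 128.5 in every library). The study used edgeR with TMM for its own test, and the scaling and low-value filter of the table are not given in the sources used here. Whole reads could not be recovered, so the depth and counting error within the values could not be modelled, and count models were not used. A further 3 entries of the table name no gene, held between 75.68% and 82.62% of a library's values and were left out. Totals over genes were 17949889 to 21175836 in control and 5527104 to 8981107 in Ptf1a cKO libraries.

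Values were divided by 13.6393, log2(value + 0.25) was taken, and genes with a mean under 0.25 were to be dropped, of which there were none. Fold changes on this scale understate those of low genes. Groups were compared in R 4.3.3 with limma 3.58.1 (trend, no covariate, two-sided, Benjamini-Hochberg adjustment over 10245 genes), checked on simulated data, and single values by exact permutation tests (SciPy 1.17.1). The members were named by symbol without use of their values, though members and lists were chosen with earlier results of these data known. Named were all members, up to 5 called genes per pathway list by smallest adjusted p, RAS and ERK genes, and the most alike profiles (3 by rule) for the leading member of each role. Some genes that the rule names, and a comparison of members with ERK genes, are not reported here. Marker lists were given as sums. Rasal3, Ptprc, Lyz2, Spp1, Egr1, Phlda1, Etv5 and Dusp6 against Dusp7 were added after values were seen. Exon lengths and promoters are of GRCm38, used for lengths and sequences only. Alternatives were other pseudocounts, filters, scalings, variance models, covariates and thresholds, and each library left out.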

Additional observations from a re-analysis of the deposited data

How the results depend on the processing

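The call of Dusp6 was held under every alternative run. Of the 8 brakes 2 passed as reported, and 1 passed (Dusp6) with a pseudocount of 0.05, with libraries scaled by the median of ratios or to the same total without digestive enzymes, without a variance trend, with the replicate number as a block, and at an adjusted p under 0.01. With 1 library left out 1 or 2 passed. With the same total for every library, which moved the median log2 fold change of all genes from 0.04 to 1.49, all 8 passed, as did 42 of the other inhibitors (18 as reported, 11 at an adjusted p under 0.01) and 9719 of all genes, 9590 of them higher (3475 as reported, 1794 at an adjusted p under 0.01).

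Spry1 did not pass in the settings where only Dusp6 passed, though it did with the same total for every library (log2 fold change 1.97). Its log2 fold change and adjusted p were 0.55 and 0.0506 with the pseudocount of 0.05, 0.51 and 0.0612 with the median of ratios, 0.37 and 0.176 without digestive enzymes in the total (all-gene median -0.13), and 0.53 and 0.0669 without a trend. With the replicate block they were 0.53 and 0.0586, and with 1 library left out the log2 fold change was between 0.33 and 0.63. Dusp1 had a log2 fold change of -0.0078 without the digestive enzymes in the total and of -0.31 to 0.42 with 1 library left out. Under the same total, Dusp1 was at 1.55, Spry2 at 1.77, Spred1 at 1.97, Spred2 at 1.71, Rasa1 at 1.66 and Nf1 at 1.73. Spred1 was between 0.43 and 0.75 with 1 library left out. The cause of these shifts was not tested.

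Whether the replicate numbers pair the mice was not settled here. Same-numbered libraries deviated together with correlations of 0.0391, 0.134 and 0.144. For each control this was its highest correlation with any Ptf1a cKO library, while Ptf1a cKO 1 deviated most like control 2 (0.0829). The block took Spry1 out of the calls and changed no other call among the 8. With a mean of at least 2 required, Spry2 was filtered out and gave no value. A test of recovered reads with edgeR was not run.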
